A study of Mus musculus with 30 samples.

Results

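Quadriceps RNA from the 3 HSA-LR mice of the pacDNA-L9 42.4 mg/kg group was compared with that of 6 HSA-LR mice given no injection (NT). These 9 libraries were chosen by their labels, as the whole 42.4 mg/kg group (animals A, B and C) and the NT mice numbered 1 to 6 of the first deposited set, out of 30 libraries in the series and 24 in that set. HSA-LR20b mice are homozygous for human skeletal actin with a long CTG expansion, inserted as a transgene on the FVB/N background. The transgene is expressed in skeletal muscle, so the line models the toxic CUG repeat RNA of myotonic dystrophy type 1 in muscle fibres and not in other cell types. pacDNA-L9 is a brush-shaped polyethylene glycol polymer that carries L9, a short oligonucleotide of locked nucleic acids that pairs with CUG repeats. The drug was given by repeated tail vein injections from 8 weeks of age, and muscle was taken 2 weeks after the last injection.

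The other injected groups of the set served as a second comparison. These HSA-LR mice received pacDNA-L9 (21.2 mg/kg or 5.3 mg/kg) or free L9 (5.3 mg/kg), with 2 mice per group. Others received pacDNA-Scr (the polymer with a scrambled oligonucleotide, 5.3 mg/kg) or Brush (the polymer alone, 40 nanomoles), again with 2 mice per group. Free L9 and pacDNA-Scr were thus given only at the lowest dose of pacDNA-L9. The paper lists more injections for the highest dose of pacDNA-L9 than for the middle one. Dose, number of injections and agent therefore cannot be told apart in the second comparison. The 5 WT mice were FVB/N mice without the transgene and are given as reference levels. No group of mice received an injection without an agent, so the injections themselves and the drug cannot be told apart in the comparison with NT.

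The 42.4 mg/kg libraries held 18369605 to 25404614 counts and the NT libraries 17576503 to 23707138. All 3 treated mice and 3 of the 6 NT mice were female by the counts of *Xist* and of Y-linked genes. At equal depth 18197 to 18275 genes were detected in the treated libraries and 18031 to 19668 in the NT libraries, and mitochondrial transcripts made up 7.28% to 8.51% and 6.17% to 8.97% of the counts. The deposited table names 9 of the 24 libraries by group and running number alone, among them all 3 treated libraries and 1 NT library (mouse 6). What that naming reflects is not given in the sources used here, and it is almost the same split as treatment, so counts with it as a covariate are given below. Free L9 library B stood apart from the other 23 libraries, with 14429 genes detected and 22.3% mitochondrial counts. The skeletal muscle actin *Acta1* was among the most abundant transcripts in all 9 libraries, at 52472, 48294 and 43405 CPM (library-size scaled counts, after TMM) in animals A, B and C and 43506 to 54874 CPM in the NT mice, as the tissue label says.

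Skeletal muscle responds to fasting and to glucocorticoid hormones with a shared set of genes. FoxO transcription factors and the glucocorticoid receptor switch on ubiquitin ligases that mark muscle proteins for breakdown, and genes that turn the fibre from sugar to fat as fuel. Macrophages are the main resident immune cells of muscle, take up foreign material and debris and digest them in lysosomes. These roles are background and were not tested here. The measurements are of whole muscle, so more cells of a type and more RNA per cell cannot be told apart.

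At 42.4 mg/kg 307 genes were higher and 121 lower than in NT, of 15832 genes tested (edgeR quasi-likelihood F-test, Benjamini-Hochberg adjusted p under 0.05). These are 1.94% and 0.764% of the genes tested, 2.70% together. The median log2 fold change was 1.40 among the higher genes and -1.05 among the lower, against -0.03 over all genes tested, and it exceeded 1 in size for 222 of the higher and 66 of the lower genes. In 283 of the 307 and 119 of the 121, the 3 treated mice did not overlap with the 6 NT mice, which was so for 5.50% and 5.17% of all genes tested in the same direction. The second comparison, 42.4 mg/kg against the mean of the 5 other injected groups, leaves the NT group out of the difference. The NT libraries still entered its filter, scaling and estimate of the spread, since the model was shared. There 489 genes were higher and 233 lower (3.09% and 1.47% of the same genes, 4.56% together). With only these groups in the model the counts were 194 and 61. Leaving out animal B reduced the counts against NT to 74 higher and 16 lower, and the table naming as a covariate reduced them to 81 and 29. Without animal A they were 306 and 99, and without animal C 244 and 56. With NT mice 7 and 8 added, in a model of all 30 libraries, they were 336 and 114. That model had no term for the deposited set, although NT mice 7 and 8, of the second set, held 0% mitochondrial counts. What that absence reflects was not tested. With female mice alone, 3 against 3, the counts against NT were 64 and 11. The counts of the second comparison rested on the free L9 mice, with 2025 higher and 627 lower without free L9 A and 699 and 403 without free L9 B.

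**Figure D1:**
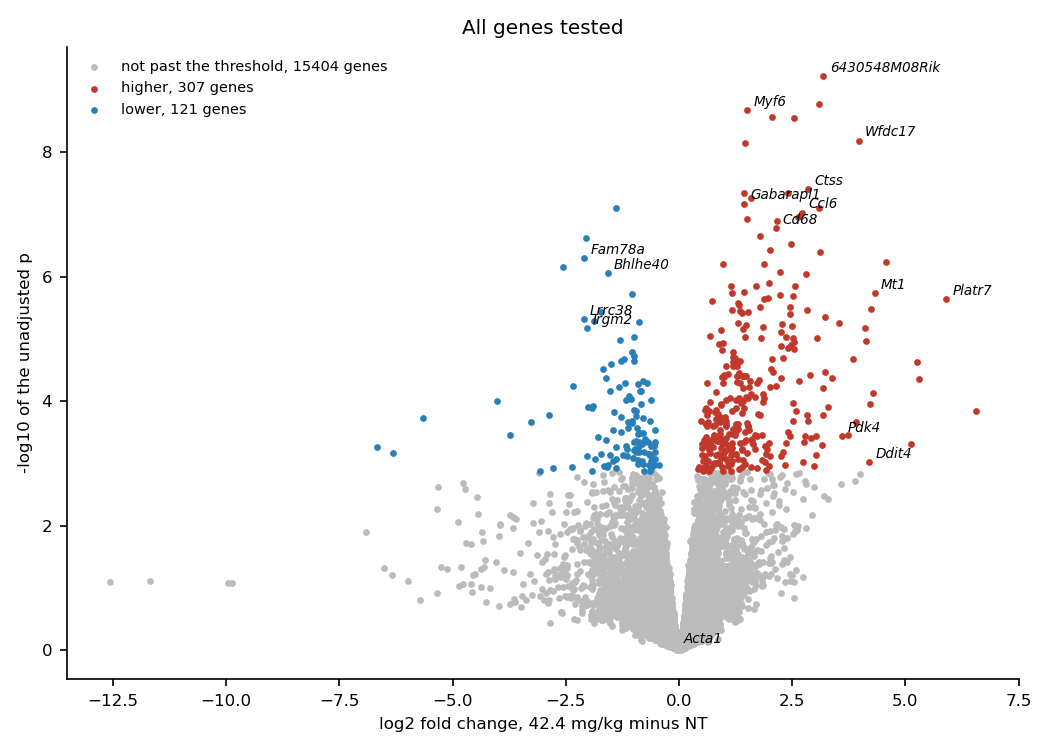
Log2 fold change at 42.4 mg/kg minus NT against -log10 of the unadjusted p for each of the 15832 genes tested, with the 307 higher genes in red, the 121 lower in blue and the others in grey. The higher genes are more numerous and reach larger fold changes at small p than the lower ones, and *Acta1* lies near 0.

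The 3 treated mice did not respond to the same degree. Animal B was the furthest of the 3 from NT in 257 of the 307 higher and 81 of the 121 lower genes. Over the higher genes, the median log2 ratio to the NT mean was 0.93 in animal A, 1.68 in B and 1.04 in C, and over the lower genes it was -0.84, -1.10 and -0.90. Since these genes were called with the same animals, the ratios are a description.

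Genes known as targets of FoxO and of glucocorticoids in muscle were among the higher genes. Members of all gene lists were chosen with earlier results of these data known. The counts and medians by list are therefore a description and no test. Of 17 glucocorticoid targets tested 11 were higher and 0 lower, with a median log2 fold change of 1.58, and of 21 genes of the FoxO and ubiquitin ligase list 12 were higher and 0 lower, with a median of 0.97. The lists share 4 of these called genes, *Ddit4*, *Klf15*, *Mt1* and *Mt2*. *Pdk4*, the kinase that shuts off the entry of sugar carbon into the mitochondrion (chr6:5483097-5496339, GRCm39), was counted at 2932 (A), 4556 (B) and 4168 CPM (C), with NT mice from 90.5 to 943 CPM and a median of 212. All 3 treated mice lay above the highest NT mouse, NT 6, and the log2 fold change was 3.59 ± 0.82 (SE, edgeR adjusted p = 0.0217). *Pdk4* was also high in the WT library without a number, at 1099 CPM against 66.4 to 347 CPM in the other 4 WT mice. That library and NT 6 share the running table names. With the table naming as a covariate the log2 fold change of *Pdk4* was 2.44 (adjusted p = 0.203).

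*Fkbp5*, a co-chaperone that restrains the glucocorticoid receptor and is a standard readout of its activity, stood at 203, 495 and 253 CPM in A, B and C and a median of 39.8 CPM in NT, lowest 14.3 and highest 78.3. The groups did not overlap, and the difference was 2.84 ± 0.62 (SE, adjusted p = 0.0154). *Tsc22d3*, which encodes the anti-inflammatory mediator GILZ, was counted at 609.9, 787 and 611 CPM in animals A, B and C, against a median of 267 CPM (range 196 to 350.0) in NT. It was higher in each treated mouse than in any NT mouse, by 1.33 ± 0.25 (SE, edgeR adjusted p = 0.00487). *Ddit4*, an inhibitor of the growth kinase mTORC1, was counted at 92.7 (A), 699 (B) and 201 CPM (C), with NT mice from 6.62 to 49.9 CPM and a median of 13.0. Its lowest treated mouse, A, stood above the highest NT mouse, but animal B far exceeded A and C, and the log2 fold change was 4.20 ± 1.05 (SE, adjusted p = 0.0394).

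*Trim63* (chr4:134042393-134056948, GRCm39) and *Fbxo32* encode MuRF1 and atrogin-1, the ubiquitin ligases by which muscle wasting is usually recognised. *Trim63* was counted at 509, 2293 and 803 CPM in A, B and C and a median of 224 CPM in NT, lowest 189 and highest 269. The NT mice lay close together and every treated mouse above them, with a log2 fold change of 2.40 ± 0.29 (SE, edgeR adjusted p = 7.27e-05), and of 1.53 without animal B (adjusted p = 7.31e-04). In the 10 libraries of the other injected groups *Trim63* ranged from 139.5 to 247 CPM. *Fbxo32* stood at 623, 993 and 796 CPM in animals A, B and C, against a median of 274 CPM (range 159.9 to 438) in NT, again with no overlap, and was higher by 1.53 ± 0.35 (SE, adjusted p = 0.0168). *Cdkn1a*, the cell cycle inhibitor p21, was counted at 91.6 (A), 457 (B) and 132 CPM (C), with NT mice from 28.1 to 49.3 CPM and a median of 40.1, higher by 2.53 ± 0.43 (SE, edgeR adjusted p = 0.00212). *Foxo1*, the transcription factor itself, was higher with a log2 fold change of 1.88 (adjusted p = 8.16e-04), and *Foxo3*, *Klf15*, *Gadd45a*, *Cebpd* and *Glul* were called as well, at 0.97, 1.39, 1.98, 2.45 and 1.58 on the log2 scale. These 6 were named after their values were seen.

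The promoter of *Trim63* is shown because it holds, side by side, a match to the FoxO motif (GTAAACA or its complement) and one to a half-site of the glucocorticoid receptor (AGAACA or its complement), both in capitals. It covers 250 bases before and 50 after the RefSeq start, chr4:134314870-134315169 of GRCm38.p6, plus strand.
Trim63: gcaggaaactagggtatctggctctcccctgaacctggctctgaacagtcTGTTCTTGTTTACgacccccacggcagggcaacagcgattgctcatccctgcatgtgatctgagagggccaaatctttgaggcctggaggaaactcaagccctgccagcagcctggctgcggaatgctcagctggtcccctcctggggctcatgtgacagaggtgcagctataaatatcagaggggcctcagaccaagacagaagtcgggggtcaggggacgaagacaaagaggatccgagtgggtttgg
Of 32851 RefSeq promoters of this length 3.65% hold the first motif and 19.0% the second on either strand. Among genes tested these shares were 2.63% and 12.9%, among the promoters of higher genes 4.70% and 17.4%, and among those of lower genes 5.71% and 12.4%.

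**Figure D2:**
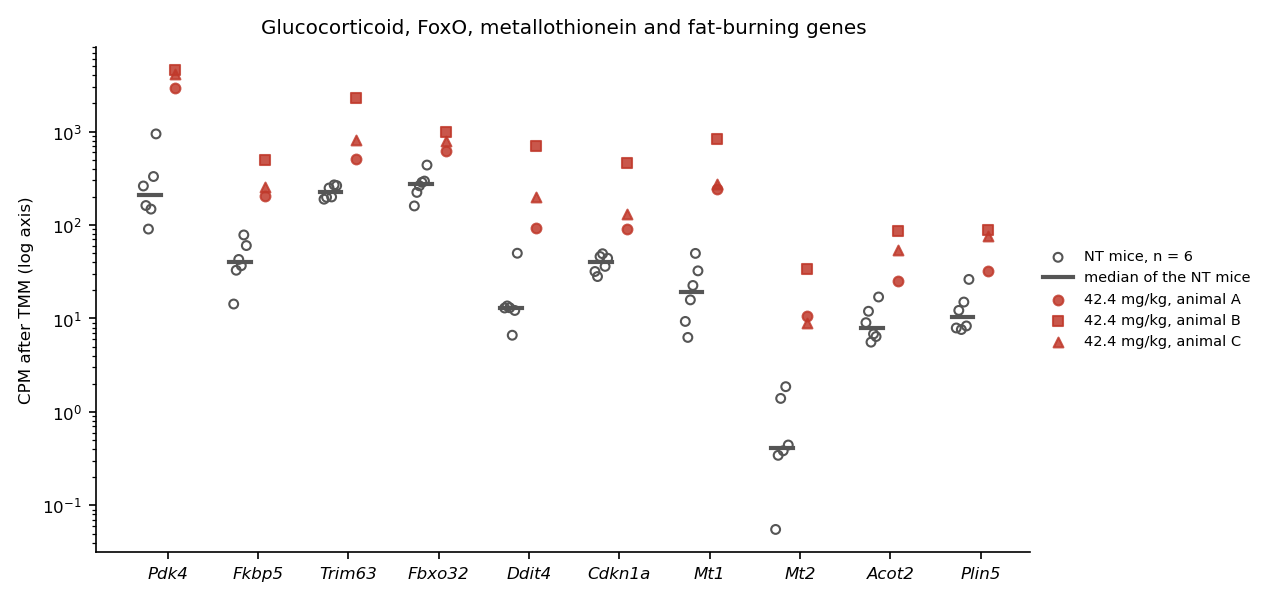
CPM on a log axis of 10 genes of the glucocorticoid, FoxO, metallothionein and fat-burning lists in the 6 NT mice (open circles, with their median as a line) and in animals A, B and C at 42.4 mg/kg (red). The treated mice lie above all NT mice in each of the 10 genes, and animal B (square) is the highest of the 3 in each.

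The metallothioneins, small proteins that bind zinc and copper and are induced by metals, glucocorticoids and inflammation, had some of the largest fold changes. *Mt1* (chr8:94905710-94906955, GRCm39) was counted at 246, 839 and 274 CPM in A, B and C and a median of 19.2 CPM in NT, lowest 6.27 and highest 49.7. All 3 treated mice lay far above the highest NT mouse, and the log2 fold change was 4.32 ± 0.63 (SE, adjusted p = 7.47e-04). *Mt2* stood at 10.6, 33.8 and 9.00 CPM in animals A, B and C, against a median of 0.414 CPM (range 0.0553 to 1.86) in NT, with a log2 fold change of 4.57 ± 0.65 (SE, edgeR adjusted p = 3.57e-04). Of its exonic bases 82.4% lie opposite to exons of another gene, and the strand setting of the counting is not given in the sources used here. Of 23 genes tested of the antioxidant and metallothionein list 4 were higher and 0 lower, the others being *Hmox1*, which breaks down haem, at 1.04 ± 0.20 (SE, adjusted p = 0.00399), and *Srxn1*, which repairs oxidised peroxiredoxins, at 0.91 ± 0.21 (SE, edgeR adjusted p = 0.0188). The median of the list was 0.10, near that of all genes.

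The promoters of *Mt1* and *Mt2* are shown because they hold several matches to the metal response element (TGCGCNC or TGCACNC, either strand, in capitals), 3 in *Mt1* and 4 in *Mt2*. They cover chr8:94178839-94179138 and chr8:94172368-94172667 of GRCm38.p6, both on the plus strand and both from RefSeq.
Mt1: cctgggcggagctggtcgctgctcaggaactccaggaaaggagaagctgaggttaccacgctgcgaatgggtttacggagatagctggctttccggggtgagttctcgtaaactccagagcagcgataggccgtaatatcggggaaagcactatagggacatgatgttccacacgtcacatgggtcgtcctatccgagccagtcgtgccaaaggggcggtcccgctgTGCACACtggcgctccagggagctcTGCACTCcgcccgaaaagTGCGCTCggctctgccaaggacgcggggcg
Mt2: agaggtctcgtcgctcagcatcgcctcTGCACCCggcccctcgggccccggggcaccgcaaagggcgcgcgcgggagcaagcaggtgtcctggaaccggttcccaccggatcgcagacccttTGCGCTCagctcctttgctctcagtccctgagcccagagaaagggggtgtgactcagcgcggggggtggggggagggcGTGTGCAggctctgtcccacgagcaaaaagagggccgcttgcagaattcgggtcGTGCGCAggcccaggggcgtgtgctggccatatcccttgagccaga
At least 1 match stands in 25.7% of all RefSeq promoters, in 34.9% of those of the higher genes, in 28.6% of those of the lower genes and in 35.1% of those of all genes tested, so a single match is common.

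Some genes that handle fat as fuel were higher too. Of 36 tested 6 were higher and 0 lower, with a median log2 fold change of 0.40. *Acot2*, a mitochondrial thioesterase induced by PPAR alpha, was counted at 25.2 (A), 87.1 (B) and 54.5 CPM (C), with NT mice from 5.58 to 17.0 CPM and a median of 7.92, higher by 2.55 ± 0.38 (SE, adjusted p = 6.31e-04). *Plin5*, which coats the lipid droplets beside mitochondria, stood at 32.6, 89.4 and 76.9 CPM in A, B and C and a median of 10.3 CPM in NT, lowest 7.62 and highest 26.2, higher by 2.36 ± 0.56 (SE, edgeR adjusted p = 0.0248). In both genes animal A was the lowest treated mouse and still above the highest NT mouse, while in *Acot1* animal A, at 1.34 CPM, lay within the NT range of 0.221 to 3.35 CPM. *Ucp3*, a mitochondrial carrier of fasted muscle, and *Ppargc1a*, the regulator of mitochondrial number, were higher by 2.23 and 1.40 on the log2 scale (adjusted p = 4.42e-04 and 0.00673) and were named after their values were seen. *Cpt1a*, a carnitine transferase that admits fatty acids to mitochondria, was not called against NT, at 0.86 ± 0.26 (SE, adjusted p = 0.0922), and was called against the other injected groups at 0.85 (adjusted p = 0.0451). *Cpt1b*, the muscle form, was not called, at 0.43 ± 0.42 (SE, edgeR adjusted p = 0.787).

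Many of these genes were higher in the 42.4 mg/kg mice than in the other injected groups too. Against those groups 15 of the 17 glucocorticoid targets, 12 of the 21 FoxO genes and 9 of the 36 fat genes were higher, and 1 fat gene was lower. The log2 fold changes there were 4.84 ± 0.70 (SE) for *Pdk4*, 3.50 ± 0.53 for *Fkbp5*, 2.65 ± 0.25 for *Trim63* and 4.65 ± 0.53 for *Mt1*, with adjusted p = 4.43e-04, 5.62e-04, 2.67e-06 and 4.18e-05 by the edgeR test. Without animal B the counts against NT fell to 3 glucocorticoid, 5 FoxO and 2 fat genes, and with the table naming as a covariate to 2, 7 and 3. In female mice alone they were 4, 5 and 2.

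Several of the largest single rises belonged to none of these lists. *6430548M08Rik*, an uncharacterised gene, had the smallest p of all genes, at 184, 632 and 272 CPM in animals A, B and C, against a median of 38.4 CPM (range 26.6 to 62.995) in NT, with 3.19 ± 0.30 (SE, adjusted p = 8.98e-06). *Platr7*, a long noncoding RNA, was listed at 0.815, 14.5 and 1.53 CPM in animals A, B and C and at no more than 0.166 CPM in NT, so that nearly all of its signal was in animal B. *Cimap1d* stood at 36.1 (A), 239 (B) and 62.2 CPM (C), with NT mice from 4.10 to 9.71 CPM and a median of 5.92. *Arl4d*, a small GTPase, stood at 11.7, 219 and 29.1 CPM in A, B and C and a median of 6.03 CPM in NT, lowest 2.82 and highest 8.71. In both, animal B was far above A and C, and the log2 fold changes were 4.11 ± 0.66 (SE, edgeR adjusted p = 0.00153) and 3.84 ± 0.68 (SE, adjusted p = 0.00334). *Doc2b*, a calcium sensor of vesicle release, was higher by 3.54 ± 0.59 (SE, edgeR adjusted p = 0.00136) and *Adam8*, a membrane protease of myeloid cells and regenerating tissue, by 3.22 ± 0.53 (SE, adjusted p = 0.0012). *Greb1*, a gene known for its response to steroid hormones, stood at 14.8, 39.1 and 18.7 CPM in animals A, B and C, against a median of 2.09 CPM (range 0.689 to 5.81) in NT, higher by 3.30 ± 0.69 (SE, edgeR adjusted p = 0.0108).

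Among growth arrest and stress genes, the p53 list had 3 of 15 tested genes higher and 0 lower. Beside *Cdkn1a* these were *Sesn1*, a leucine sensor that restrains mTORC1, and *Trp53inp1*. *Sesn1* was counted at 46.7 (A), 166 (B) and 55.1 CPM (C), with NT mice from 27.7 to 38.95 CPM and a median of 33.7. In *Trp53inp1* the groups overlapped, since animal A at 11.9 CPM lay within the NT range of 9.19 to 14.9 CPM. *Mdm2*, the usual readout of p53 itself, was not called, at 0.09 ± 0.15 (SE, adjusted p = 0.901). Of 26 immediate early genes 3 were higher and 1 lower. *Nr4a3* stood at 35.8, 89.0 and 31.9 CPM in A, B and C and a median of 5.94 CPM in NT, lowest 2.41 and highest 11.0. *Atf3* stood at 246, 125 and 173 CPM in animals A, B and C, against a median of 48.1 CPM (range 27.2 to 78.2) in NT. Neither overlapped between the groups, whereas *Maff* rested on animal B, at 78.4 CPM against 4.12 and 8.06 in A and C. The log2 fold changes were 3.03 ± 0.70 (SE, edgeR adjusted p = 0.0218), 1.84 ± 0.47 (SE, adjusted p = 0.0376) and 3.18 ± 0.63 (SE, edgeR adjusted p = 0.0066). *Egr3* was lower, with a log2 fold change of -1.92 ± 0.52 (SE, adjusted p = 0.0487), and *Fos* and *Fosb*, which spanned 5.21 to 241 and 0.939 to 24.7 CPM among the NT mice, were not called (adjusted p = 0.495 and 0.186). Without animal B 0 of the p53 list and 0 of the immediate early list were called, and with the table naming as a covariate 0 were higher.

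Single members were called in lists of protein stress. *Slc7a5*, an importer of large amino acids, was higher by 2.89 ± 0.56 (SE, edgeR adjusted p = 0.00512) as the only one of 21 tested genes of the integrated stress response, and rested on animal B, at 35.5 CPM against 6.86 and 6.97 CPM. *Atf4* and *Atf5* were not called, at 0.29 and -0.16 on the log2 scale (adjusted p = 0.602 and 0.925). *Hspb1*, a small heat shock protein of the Z-disc, was the only one of 34 chaperone genes called, at 1433 (A), 1005 (B) and 940.5 CPM (C), with NT mice from 226 to 699 CPM and a median of 466. The log2 fold change was 1.34 ± 0.32 (SE, adjusted p = 0.025), and *Hspa1a* and *Hspa1b* were not called (adjusted p = 0.83 and 0.887). The chaperone list summed to 14210.4, 12179 and 12094 CPM in A, B and C and to 6484 to 10024 CPM in NT, with 28 of 34 members above 0 on the log2 scale. The calls of *Hspb1* and *Slc7a5* were lost without animal B, with the table naming and in female mice. That of *Hspb1* was also lost without animal A and with sex as a covariate. *Gabarapl1*, which coats the membrane of autophagosomes and is a known FoxO target, was the only one of 25 autophagy genes called, at 104, 159 and 114 CPM in A, B and C and a median of 46.9 CPM in NT, lowest 38.0 and highest 55.2. Its log2 fold change of 1.43 ± 0.18 (SE, edgeR adjusted p = 8.87e-05) was among the firmest, while *Sqstm1* and *Map1lc3a* were at 0.37 and 0.13 and not called. Of the exonic bases of *Gabarapl1* 31.0% lie opposite to another gene.

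In the muscle fibre itself, 2 myogenic regulators rose. *Myf6*, the regulator of mature fibres also called MRF4 (chr10:107328712-107330656, GRCm39), was counted at 319, 285 and 319 CPM in animals A, B and C, against a median of 105 CPM (range 84.3 to 146) in NT. The treated mice were alike and all above the highest NT mouse, and *Myf6* had one of the smallest adjusted p, with 1.50 ± 0.15 (SE, adjusted p = 8.98e-06). It stood at 74.1 to 124 CPM in the 10 mice of the other injected groups and at 66.0 to 81.1 CPM in WT. *Myog*, which acts in differentiation and after denervation, stood at 30.6 (A), 89.9 (B) and 33.6 CPM (C), with NT mice from 7.90 to 17.7 CPM and a median of 13.6, higher by 1.95 ± 0.48 (SE, edgeR adjusted p = 0.0285). The satellite cell genes *Pax7* and *Myf5* were not called (adjusted p = 0.822 and 0.956). *Myf6* kept its call without each treated mouse and with the table naming, whereas *Myog* lost it without animal B and with the table naming. Of 19 genes of the Z-disc and mechanical stress 2 were higher. *Xirp1*, an actin-binding protein that gathers where fibres are damaged, stood at 1003, 964 and 824 CPM in A, B and C and a median of 300.5 CPM in NT, lowest 233 and highest 743. *Flnc*, the filamin that cross-links actin at the Z-disc, stood at 3332, 3209.8 and 3069 CPM in animals A, B and C, against a median of 1702 CPM (range 1127 to 2027) in NT. Neither overlapped, and their log2 fold changes were 1.38 ± 0.29 (SE, adjusted p = 0.00993) and 0.99 ± 0.24 (SE, edgeR adjusted p = 0.0247). *Ankrd1* and *Ankrd2* lay above all NT mice as well, with 1.59 and 1.80 on the log2 scale, and were not called (adjusted p = 0.254 and 0.13). Without animal B and with the table naming 0 of the 19 were higher, and without A or without C 1 was.

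Macrophage genes, in lists chosen in the same way, were also among the higher genes. Of 23 tested genes of phagocytic macrophages 10 were higher and 0 lower, with a median log2 fold change of 0.52. Of 23 of resident macrophages 8 were higher and 0 lower, with a median of 0.94. The phagocytic list summed to 2149, 2275 and 2177 CPM in A, B and C, above the NT range of 1179 to 1879 CPM. The resident list summed to 505.6, 653.9 and 447.6 CPM, with A and C inside the NT range of 409.0 to 506.1 CPM. *Ctss*, a cathepsin of antigen-presenting cells (chr3:95433963-95463717, GRCm39), was counted at 30.3 (A), 30.9 (B) and 17.2 CPM (C), with NT mice from 1.92 to 6.36 CPM and a median of 3.21. All 3 treated mice, of which C was the lowest, lay above the highest NT mouse, and the log2 fold change was 2.85 ± 0.34 (SE, adjusted p = 7.27e-05). *Cd68*, the lysosomal glycoprotein by which macrophages are stained, stood at 28.0, 23.1 and 18.8 CPM in A, B and C and a median of 5.57 CPM in NT, lowest 3.15 and highest 7.15, higher by 2.14 ± 0.28 (SE, edgeR adjusted p = 1.37e-04). *Gpnmb*, a glycoprotein of macrophages laden with lipid or debris, stood at 20.7, 21.0 and 15.8 CPM in animals A, B and C, against a median of 5.68 CPM (range 3.30 to 10.3) in NT, higher by 1.68 ± 0.35 (SE, adjusted p = 0.0088). For both the groups were apart and animals A, B and C close together.

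*Trem2*, a lipid receptor of phagocytes, was counted at 5.85 (A), 3.13 (B) and 2.58 CPM (C), with NT mice from 0.213 to 1.98 CPM and a median of 0.362, higher by 2.51 ± 0.53 (SE, edgeR adjusted p = 0.00973). *Lgals3*, the lectin galectin-3, stood at 26.9, 25.9 and 18.2 CPM in A, B and C and a median of 6.07 CPM in NT, lowest 4.38 and highest 11.1, higher by 1.76 ± 0.34 (SE, adjusted p = 0.00555). *Atp6v0d2*, a proton pump subunit of phagocytes and osteoclasts, stood at 1.82, 1.06 and 0.900 CPM in animals A, B and C, against a median of 0.151 CPM (range 0.0984 to 0.301) in NT, higher by 2.79 ± 0.66 (SE, edgeR adjusted p = 0.0217). None of these 3 overlapped between the groups. *Apoe* and *Tyrobp*, the adaptor through which Trem2 signals, were called too, at 1.50 and 1.69 on the log2 scale, and were named after their values were seen.

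Of the genes that mark resident macrophages, *Ms4a7* stood at 3.55 (A), 5.08 (B) and 3.44 CPM (C), with NT mice from 0.291 to 1.00 CPM and a median of 0.338, higher by 3.11 ± 0.43 (SE, adjusted p = 2.67e-04). *C1qb*, a chain of the complement recognition protein C1q, was counted at 24.4, 32.1 and 18.8 CPM in A, B and C and a median of 6.66 CPM in NT, lowest 4.23 and highest 11.8, higher by 1.80 ± 0.31 (SE, edgeR adjusted p = 0.00194). *Adgre1*, which encodes F4/80, stood at 3.50, 4.43 and 2.19 CPM in animals A, B and C, against a median of 1.09 CPM (range 0.555 to 1.91) in NT, higher by 1.50 ± 0.38 (SE, adjusted p = 0.0314). In *Adgre1* the gap between the lowest treated and the highest NT mouse was narrow. *Mrc1* and *Cd163*, markers of perivascular macrophages, were not called, at 0.61 ± 0.29 (SE, edgeR adjusted p = 0.381) and 1.09 ± 0.30 (SE, adjusted p = 0.0533). *Wfdc17*, a small protease inhibitor of macrophages outside the lists and one of the 12 largest rises, stood at 7.96 (A), 9.33 (B) and 4.11 CPM (C), with NT mice from 0.197 to 0.864 CPM and a median of 0.413, higher by 3.97 ± 0.43 (SE, edgeR adjusted p = 1.61e-05).

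**Figure D3:**
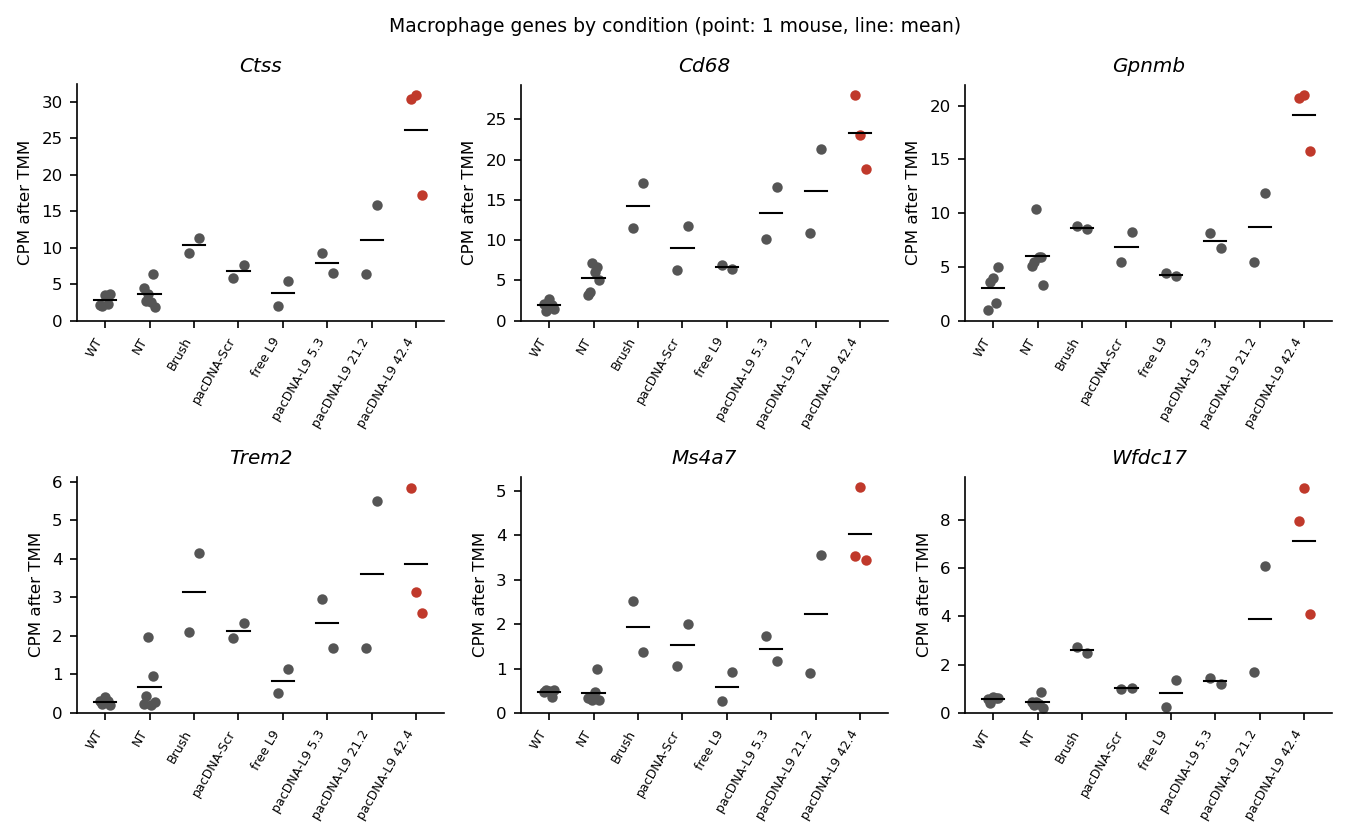
CPM of 6 macrophage genes in each mouse of the 8 conditions of the first set, with the mean of each group as a line and the 42.4 mg/kg mice in red. All 3 treated mice lie above the 6 NT mice in every gene, both Brush mice lie above the NT mean in every gene, and the higher mouse at 21.2 mg/kg falls within or above the lower treated mice in *Cd68*, *Trem2*, *Ms4a7* and *Wfdc17*.

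Some lysosomal genes were higher beside them. Of 60 tested 11 were higher and 0 lower, with a median log2 fold change of 0.26, and the summed level of the list was 4762, 4799 and 4302 CPM in animals A, B and C against 3220.4 to 4144 CPM in NT. The membrane protein *Laptm5* of blood cells stood at 18.3, 17.4 and 9.20 CPM in A, B and C and a median of 3.53 CPM in NT, lowest 2.99 and highest 5.45, higher by 1.96 ± 0.31 (SE, adjusted p = 8.16e-04). The called members also included *Ctsk*, *Ctsl*, *Lgmn*, *Grn* and *Lipa*, with log2 fold changes from 0.67 to 1.24, named after their values were seen. The general lysosomal proteins *Lamp1* and *Lamp2* were not called, at 0.15 ± 0.12 (SE, edgeR adjusted p = 0.721) and 0.31 ± 0.17 (SE, adjusted p = 0.463).

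Receptors, complement and chemokines rose in part. Of 23 scavenger and endocytic receptors 5 were higher and 0 lower, with a median of 0.63. The immunoglobulin receptors *Fcgr2b* and *Fcgr3* were higher by 2.00 ± 0.40 (SE, edgeR adjusted p = 0.0065) and 1.90 ± 0.47 (SE, adjusted p = 0.0268), and the receptors for microbial RNA and endotoxin, *Tlr7* and *Tlr4*, by 2.65 ± 0.52 (SE, edgeR adjusted p = 0.00577) and 1.30 ± 0.33 (SE, adjusted p = 0.0364). *Msr1* and *Cd36* were not called, at 1.31 and 0.84 on the log2 scale (adjusted p = 0.167 and 0.325). Without animal B 0 of the 23 were higher, and in female mice 1 was. Of 12 complement genes 3 were higher, *C4b* at 1.45 ± 0.34 (SE, edgeR adjusted p = 0.02), the anaphylatoxin receptor *C5ar1* at 1.46 ± 0.38 (SE, adjusted p = 0.0418) and the C1 inhibitor *Serping1* at 0.72 ± 0.17 (SE, edgeR adjusted p = 0.0245). *C2* and *C3* were not called (adjusted p = 0.816 and 0.659). Of the complement list 0 were called without animal A, without B, with sex or the table naming as a covariate, or in female mice. Of 18 cytokines and chemokines 3 were higher.

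The chemokines called were *Ccl6* and *Ccl9*, which myeloid cells make, and *Cxcl13*, which attracts B cells. *Ccl6* stood at 19.3, 29.8 and 13.9 CPM in animals A, B and C, against a median of 2.62 CPM (range 2.01 to 6.27) in NT. *Ccl9* stood at 13.1 (A), 25.6 (B) and 9.04 CPM (C), with NT mice from 2.19 to 5.41 CPM and a median of 2.93. *Cxcl13* stood at 0.575, 2.19 and 0.587 CPM in A, B and C and a median of 0.174 CPM in NT, lowest 0.0581 and highest 0.213. None of the 3 overlapped between the groups, and their log2 fold changes were 2.71 ± 0.34 (SE, adjusted p = 9.87e-05), 2.31 ± 0.42 (SE, edgeR adjusted p = 0.00331) and 2.74 ± 0.71 (SE, adjusted p = 0.0388). *Ccl2*, the main attractant of monocytes, was not called and was listed at 0.144, 0 and 0 CPM in animals A, B and C, against a median of 0.307 CPM (range 0.172 to 0.465) in NT. *Mmp3*, a matrix protease, was the only one of 50 matrix genes called, at 4.08 (A), 4.49 (B) and 3.68 CPM (C), with NT mice from 0.387 to 1.14 CPM and a median of 0.813, higher by 2.26 ± 0.39 (SE, edgeR adjusted p = 0.0017), while *Col1a1* and *Col1a2* were at -0.51 and -0.23 and not called.

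Markers of other immune cells were few. Of 6 tested genes of monocytes and neutrophils, 7 of dendritic cells, 6 of mast cells, 8 of MHC class II and 12 of MHC class I, 0 were called in either direction. The mast cell list nevertheless had a median log2 fold change of 1.31 and summed to 11.9, 12.0 and 8.92 CPM in A, B and C, above all NT mice at 4.95 to 7.79 CPM. The dendritic cell list had a median of 0.61 and summed to 22.8, 26.9 and 27.2 CPM, also above the NT range of 13.6 to 17.5 CPM. The medians of the MHC lists were 0.04 for class II and -0.33 for class I, and that of monocytes and neutrophils was -0.07. Of 20 genes of T, B and NK cells only 3 were high enough to be tested, and *Cd4*, a coreceptor of helper T cells, was higher, at 1.29, 1.60 and 1.53 CPM in A, B and C and a median of 0.0856 CPM in NT, lowest 0 and highest 0.166. Its log2 fold change was 4.24 ± 0.67 (SE, adjusted p = 0.00103), and the T cell genes *Cd3e* and *Cd3d* fell below the filter on low counts. *Cd4* was near 0 CPM in NT, so a fall could not have been called there. The summed level of the T, B and NK list was 38.4, 30.5 and 67.3 CPM in animals A, B and C and 51.1 to 275 CPM in NT. That of the monocyte and neutrophil list was 11.5, 91.4 and 16.8 CPM, with animal B above the NT range of 7.79 to 38.7 CPM.

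In the 10 mice of the other injected groups *Pdk4* ranged from 56.5 to 302 CPM and *Mt1* from 8.67 to 47.8 CPM, below all 3 treated mice. The macrophage genes lay higher in part of those mice. *Ctss* was counted at 6.38 and 15.8 CPM at 21.2 mg/kg, 9.34 and 6.56 at 5.3 mg/kg, 9.32 and 11.3 with Brush, 5.92 and 7.63 with pacDNA-Scr, and 2.07 and 5.49 with free L9. Of these 8 mice given a polymer 7 lay above the highest NT mouse, at 6.36 CPM, and all lay below animals A and B. *Cd68* ran from 6.27 to 21.3 CPM in the 8 other mice given a polymer, and was at 6.90 and 6.46 CPM with free L9. None of these smaller groups passed the test against NT for *Ctss* or *Cd68*. With 2 mice each, they had 2 genes called higher than NT at 21.2 mg/kg (0.0126% of genes tested), *Wfdc17* at 3.10 and *Mpeg1*, a pore-forming protein of macrophages named after its values were seen, at 2.18 on the log2 scale (adjusted p = 0.0174 and 0.0174), and 0 at 5.3 mg/kg, with Brush or with pacDNA-Scr. Free L9 had 205 genes higher and 149 lower than NT (1.29% and 0.941%), with the library that stood apart among its 2. These groups share the NT mice with the 42.4 mg/kg comparison.

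With the NT group left out of the difference, part of the macrophage genes were higher at 42.4 mg/kg than in the mean of the other injected groups. Of the 23 phagocytic genes 7 were higher there, of the 23 resident genes 6 were higher and 1 lower, and of the 60 lysosomal genes 9 were higher. The difference was 1.80 ± 0.30 (SE) on the log2 scale for *Ctss* (edgeR adjusted p = 8.02e-04) and 2.52 ± 0.30 for *Ccl6* (adjusted p = 2.96e-05). It did not pass the test for *Trem2*, at 0.83 ± 0.47 (adjusted p = 0.421), for *Tlr7*, *Fcgr3*, *C5ar1* or *C4b*. Against NT, leaving out animal B left 3 phagocytic, 2 resident and 5 lysosomal genes, and the table naming as a covariate left 1, 3 and 5. In female mice alone 1, 2 and 4 were higher. With sex as a covariate 6 resident genes were higher and 1 was lower.

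**Figure D4:**
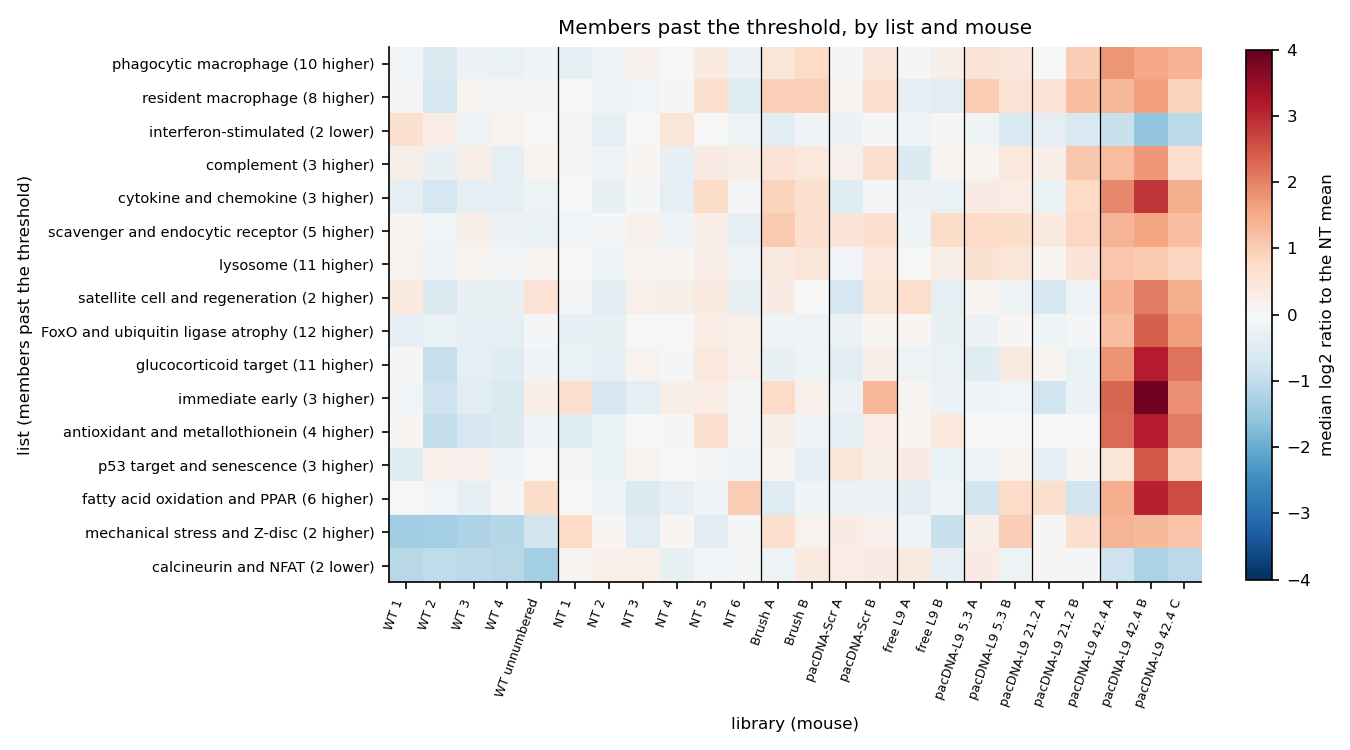
Median log2 ratio to the NT mean, on a colour scale from -4 to 4, over the members past the threshold of each list with at least 2 such members, in each of the 24 mice of the first set. The number of members and their direction follow each list's name. The glucocorticoid, FoxO and metallothionein rows are red in the 3 right-hand columns and deepest in animal B, and pale in the other injected mice. The macrophage, scavenger receptor and lysosome rows are also pale red in most mice given Brush or a pacDNA. The scavenger receptor row is pale red in free L9 B too.

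The fall held fewer genes than the rise, and few of them belonged to the lists. *Ky*, a protein of the Z-disc of slow and postural muscle (chr9:102382949-102423441, GRCm39), had the largest negative fold change among the genes named by rule, at 67.8, 23.9 and 49.0 CPM in animals A, B and C, against a median of 249 CPM (range 181 to 400.5) in NT. All 3 treated mice lay below the lowest NT mouse, as the choice of the gene required, and the log2 fold change was -2.56 ± 0.37 (SE, edgeR adjusted p = 3.84e-04). *Fam78a* stood at 10.1 (A), 3.84 (B) and 7.63 CPM (C), with NT mice from 23.0 to 44.5 CPM and a median of 29.8, lower, with a log2 fold change of -2.09 ± 0.30 (SE, adjusted p = 3.17e-04). *Lrrc38*, an accessory subunit of large potassium channels, stood at 9.16, 3.19 and 7.75 CPM in A, B and C and a median of 28.3 CPM in NT, lowest 24.4 and highest 37.1, lower, with a log2 fold change of -2.11 ± 0.35 (SE, edgeR adjusted p = 0.00127). *Kcnh2*, the potassium channel also called ERG1, was counted at 1.73, 1.65 and 2.70 CPM in animals A, B and C, against a median of 10.4 CPM (range 6.95 to 14.3) in NT, lower, with a log2 fold change of -2.34 ± 0.47 (SE, adjusted p = 0.00649). In WT mice *Ky* ran from 291 to 617 CPM and *Fam78a* from 42.8 to 69.9 CPM, so the treated mice lay further from WT than the NT mice did.

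The other falls among the 12 largest included *Sec14l5*, *Ttyh2*, of a family of membrane channels, and *Cers1*, the main ceramide synthase of muscle. *Sec14l5* stood at 13.5 (A), 5.32 (B) and 9.12 CPM (C), with NT mice from 17.1 to 46.9 CPM and a median of 35.1. *Ttyh2* stood at 9.54, 5.49 and 7.44 CPM in A, B and C and a median of 26.2 CPM in NT, lowest 12.0 and highest 31.5. *Cers1* stood at 5.03, 4.31 and 4.58 CPM in animals A, B and C, against a median of 13.8 CPM (range 12.3 to 17.9) in NT. The groups did not overlap, as the choice of these genes required. The log2 fold changes were -1.87, -1.72 and -1.67, with adjusted p = 0.00133, 0.00105 and 0.0044 by the edgeR test. *Aplnr*, the apelin receptor of endothelium, was lower, with a log2 fold change of -1.89 ± 0.40 (SE, edgeR adjusted p = 0.0106), and the gene models *Gm49794*, *Gm56886* and *Gm4544* were at -2.05, -1.86 and -1.72 on the log2 scale. In the endothelial list the calls were split, with *Aplnr* lower and *Rgcc*, a cell cycle regulator of endothelium, higher by 1.19 ± 0.21 (SE, adjusted p = 0.00281), while *Pecam1* and *Cdh5* were not called (adjusted p = 0.501 and 0.978). Without animal B and with the table naming 0 of this list were called.

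**Figure D5:**
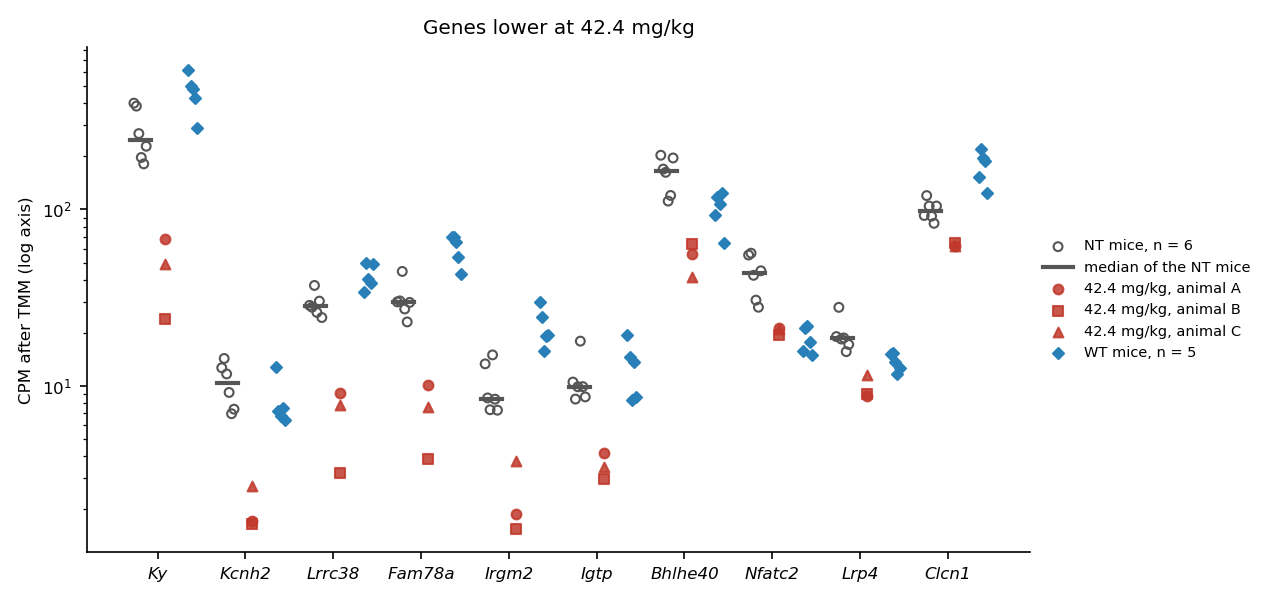
CPM on a log axis of 10 genes lower at 42.4 mg/kg, in the 6 NT mice (open circles, with their median as a line), animals A, B and C (red) and the 5 WT mice (blue). The treated mice lie below all NT mice in each gene, and relative to NT the WT mice are higher in some of these genes and lower in others.

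Few interferon-stimulated genes were called, and those were lower. Of 35 tested 0 were higher and 2 lower, with a median log2 fold change of -0.62 and 4 of the 35 above 0. The summed level of the list was 104, 63.6 and 107 CPM in animals A, B and C, within the NT range of 100.5 to 304 CPM in A and C and below it in B. *Igtp*, an interferon-inducible GTPase that guards against intracellular parasites, stood at 4.17 (A), 2.95 (B) and 3.48 CPM (C), with NT mice from 8.42 to 17.9 CPM and a median of 9.90, lower, with a log2 fold change of -1.62 ± 0.32 (SE, edgeR adjusted p = 0.00534). *Irf9*, a subunit of the interferon transcription factor ISGF3, stood at 3.45, 1.60 and 3.13 CPM in A, B and C and a median of 5.78 CPM in NT, lowest 3.99 and highest 6.40, lower, with a log2 fold change of -0.99 ± 0.24 (SE, adjusted p = 0.0245). *Irgm2*, a GTPase of the same family outside the list and one of the 12 largest falls, stood at 1.87, 1.54 and 3.76 CPM in animals A, B and C, against a median of 8.48 CPM (range 7.28 to 15.0) in NT, lower, with a log2 fold change of -2.04 ± 0.34 (SE, edgeR adjusted p = 0.00153). *Ifit1* and *Ifit2* were not called, at -0.24 and -0.27 (adjusted p = 0.949 and 0.821). In WT *Irgm2* was counted at 15.7 to 30.01 CPM. Without animal B, and with the table naming as a covariate, 0 of the 35 were called.

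*Igtp* and *Irgm2* are neighbours on chromosome 11, their annotated spans overlap (chr11:58089840-58098417 and chr11:58090444-58113615, GRCm39), and they are related in sequence, so the counting may have split reads between them. Their RefSeq promoters, chr11:58199306-58199605 and chr11:58214727-58215026 of GRCm38.p6, plus strand, are shown because both hold an interferon-type motif, a pair of GAAA with any 2 letters between them (either strand), in capitals.
Igtp: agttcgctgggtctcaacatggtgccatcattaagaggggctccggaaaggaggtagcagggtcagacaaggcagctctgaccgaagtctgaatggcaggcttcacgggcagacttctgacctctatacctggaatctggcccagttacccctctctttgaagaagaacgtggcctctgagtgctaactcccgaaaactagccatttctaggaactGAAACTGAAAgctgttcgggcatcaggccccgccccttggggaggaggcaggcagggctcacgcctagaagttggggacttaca
Irgm2: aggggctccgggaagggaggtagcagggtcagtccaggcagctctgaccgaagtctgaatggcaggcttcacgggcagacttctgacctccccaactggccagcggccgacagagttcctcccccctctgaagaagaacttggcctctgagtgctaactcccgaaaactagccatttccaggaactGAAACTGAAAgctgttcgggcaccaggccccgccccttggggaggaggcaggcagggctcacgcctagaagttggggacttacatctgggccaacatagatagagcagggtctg
This motif stands in 3.44% of all RefSeq promoters, in 2.96% of those of genes tested, in 4.36% of those of the higher genes and in 2.86% of those of the lower genes.

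Single genes in lists of the membrane and signalling of the fibre were lower. Over all genes tested 0.764% were lower. *Clcn1*, the muscle chloride channel whose loss of function causes myotonia, stood at 62.0 (A), 64.4 (B) and 62.1 CPM (C), with NT mice from 83.4 to 119.9 CPM and a median of 98.5, lower, with a log2 fold change of -0.66 ± 0.17 (SE, adjusted p = 0.0324). The treated mice were alike and below all NT mice, and WT mice were above them at 124 to 219 CPM. This is the level of the whole gene and says nothing of its splicing. It was the only one of 24 excitability genes called, with *Scn4a* at -0.16 (adjusted p = 0.842). The call of *Clcn1* was lost without A, without B and without C (adjusted p = 0.105, 0.185 and 0.118), with all 30 libraries (0.211), with sex or the table naming as a covariate (0.0801 and 0.396) and in female mice (0.342). The potassium channel *Kcna7*, named after its values were seen, was at -1.03 with no overlap and was not called (adjusted p = 0.0578). *Lrp4*, the agrin receptor of the neuromuscular junction, was the only one of 16 genes of that list called, at 8.82, 9.04 and 11.5 CPM in A, B and C and a median of 18.6 CPM in NT, lowest 15.6 and highest 27.9, lower, with a log2 fold change of -0.99 ± 0.18 (SE, edgeR adjusted p = 0.00318), with *Chrna1* and *Chrnb1* not called (adjusted p = 0.53 and 0.823). *Lrp4* was not called without animal B (adjusted p = 0.0503), with the table naming (adjusted p = 0.0849) or in female mice. Of 17 calcineurin and NFAT genes 2 were lower. *Nfatc2*, a transcription factor activated by calcineurin, stood at 21.4, 19.3 and 20.9 CPM in animals A, B and C, against a median of 43.6 CPM (range 27.9 to 56.5) in NT. *Ntf5*, which encodes a neurotrophin of muscle, stood at 8.73 (A), 5.14 (B) and 6.18 CPM (C), with NT mice from 12.3 to 19.6 CPM and a median of 13.5.

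In both, all 3 treated mice lay below the NT mice. Their log2 fold changes were -1.06 ± 0.22 (SE, adjusted p = 0.00896) for *Nfatc2* and -1.17 ± 0.24 (SE, edgeR adjusted p = 0.00919) for *Ntf5*, and *Nfatc1* was not called (adjusted p = 0.357). Without animal B, with the table naming and in female mice 0 of the 17 were lower. In WT mice *Nfatc2* ran from 15.0 to 22.0 CPM, a range that holds the values of animals A, B and C. Of the exonic bases of *Ntf5*, 37.1% lie opposite to another gene. Of 18 clock genes 1 was higher and 1 lower. The treated and NT mice did not overlap in 2 higher and 5 lower clock genes, against 5.50% and 5.17% of all genes tested. Among these *Nfil3* (higher) and *Dbp*, *Nr1d1*, *Nr1d2* and *Per3* (lower), named after their values were seen, were not called against NT. Against the other injected groups *Nr1d1* was lower and *Nfil3* higher (edgeR adjusted p = 0.0134 and 0.00711). *Bhlhe40*, a repressor of the clock that also responds to hypoxia, stood at 56.1, 63.7 and 41.6 CPM in A, B and C and a median of 166 CPM in NT, lowest 112 and highest 203, lower, with a log2 fold change of -1.57 ± 0.23 (SE, adjusted p = 4.48e-04), and remained past the threshold without animal B (adjusted p = 0.00341) and with the table naming as a covariate (adjusted p = 0.0144). *Bmal1*, an activator of the clock, stood at 20.9, 64.2 and 25.7 CPM in animals A, B and C, against a median of 9.50 CPM (range 5.24 to 14.1) in NT, higher by 1.99 ± 0.52 (SE, edgeR adjusted p = 0.043). That call was lost without B, without C, with all 30 libraries, with sex or the table naming as a covariate and in female mice, and *Clock* was not called. The hour at which muscle was taken is not given in the sources used here.

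Of the 47 lists 22 had 0 members called in either direction. Among them were 59 nuclear and 13 mitochondrial genes of the respiratory chain, with medians of -0.13 and 0.04, 32 genes of glycolysis and glycogen, with -0.08, 76 of the cytosolic ribosome, with -0.04, 31 of the proteasome, with 0.13, and 26 of fast and slow fibres, with 0.17. Further cell type lists without a call were those of fibroblasts (19 tested, median 0.14), pericytes and smooth muscle (16, 0.07), tendon cells (10, -0.22), Schwann cells (15, 0.11), red blood cells (6, -0.20) and fat cells (22, -1.58). The fat cell list summed to 2704, 3432 and 3671 CPM in animals A, B and C, above the NT median of 2657 CPM and inside the wide NT range of 1934 to 9552 CPM. The fold changes compare group means, which single very high NT values raise, so they are not on the scale of the NT median. The fat synthase *Fasn*, named after its values were seen, was at 26.7, 24.2 and 29.5 CPM in A, B and C, and in NT at a median of 30.5 CPM with 1 mouse at 1942 CPM. Cell cycle genes (25 tested) had a median of -0.03 and sterol genes (22) of -0.21.

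Of 15 tested splicing regulators and panel genes and 21 genes with short CTG or CAG runs 0 were called, with medians of 0.07 and -0.12. The short repeat list summed to 1744, 1764 and 1639 CPM in A, B and C, below all NT mice at 1852 to 2042 CPM, with 6 of 21 members above 0 on the log2 scale. *Mbnl2*, a splicing factor of the family that CUG repeats bind, named after its values were seen, stood at 202 (A), 366 (B) and 279.9 CPM (C), with NT mice from 126 to 195 CPM and a median of 159 and was not called, at 0.80 ± 0.27 (SE, adjusted p = 0.138). *Acta1*, the mouse counterpart of the transgene, had -0.03 ± 0.22 (SE, edgeR adjusted p = 0.983). *Gtf2b*, a general transcription factor often used as a reference gene, stood at 16.2, 17.1 and 13.5 CPM in A, B and C and a median of 12.1 CPM in NT, lowest 9.96 and highest 14.2 and was not called, at 0.37 ± 0.16 (SE, adjusted p = 0.314).

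Annotated transcripts were searched for runs of at least 3 CTG units, the letters that L9 can pair with. Of 2480 tested genes with such a run in their canonical transcript, 51 were higher (2.06%) and 31 lower (1.25%), with a median log2 fold change of -0.04, against 1.94%, 0.764% and -0.03 over all genes. With at least 4 units, 14 of 430 were higher and 1 was lower, *Mreg*, named after its values were seen. With at least 6 units, 1 of 78 was higher and 0 lower. Where the run lay in the coding sequence, 34 of 1580 were higher and 17 lower. In 5′ UTRs these were 2 and 5 of 207, and in 3′ UTRs 14 and 8 of 599.

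The runs of the 3 called genes with at least 5 units are shown, in windows of 30 bases with the CTG units in capitals, since they are the longest stretches to which L9 could pair among the changed genes. All 3 genes were higher. The run of *Greb1* has 16 units in the 5′ UTR (chr12:16790144-16790191, minus strand), of which 7 are shown. Those of *Cd4* (chr6:124856573-124856587, minus strand) and *Serping1* (chr2:84605090-84605104, minus strand) have 5 units each in the coding sequence. Coordinates are of GRCm39.
Greb1: cccctcttgCTGCTGCTGCTGCTGCTGCTG
Cd4: gcgcttgCTGCTGCTGCTGCTGcagctgtc
Serping1: gaccctcCTGCTGCTGCTGCTGgctgggga
The 3 tested genes with longer runs than *Greb1* were *Cdk14* (26 units), *Mapkap1* (25) and *Pacsin2* (21), named after their values were seen, with log2 fold changes of 0.14, -0.02 and 0.12 and adjusted p = 0.917, 0.976 and 0.776.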

How the data were processed

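Poly(A) RNA of quadriceps was sequenced in 30 mice as paired-end reads. The authors aligned the reads (HISAT2 2.0.5 and GRCm39, by the submitters' processing notes) and deposited raw counts per gene for 56748 gene IDs, of which 56017 matched GENCODE M39. The options of the counting, strand included, are not given in the sources used here. Groups came from the sample labels.

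The 24 libraries of the first set were fitted in 1 model with 8 conditions (edgeR 4.0.16 in R 4.3.3, TMM scaling, filterByExpr, robust quasi-likelihood F-test). Benjamini-Hochberg adjustment ran over the 15832 genes tested, with a threshold of 0.05. CPM values use TMM library sizes. The named genes were the 12 largest changes in each direction among called genes without overlap and with a mean of at least 5 CPM in the higher group, up to 4 called members per list and direction with its first 2 members, *Acta1* and *Gtf2b*. The members and lists were chosen with earlier results of these data known. In the main model p-values set each difference against a spread between mice that was estimated from all 24 libraries. The alternatives were other scalings, filters, covariates, model groups, DESeq2 1.42.0 and each animal left out. Promoter sequences are from RefSeq (GRCm38.p6), another build than that of the counts. A further gene of the named set is not reported here.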

Additional observations from a re-analysis of the deposited data

Results flagged for a closer look

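In 8 of the named genes (116 in all) 1 NT mouse lay apart from the other 5 by Dixon's test, on the log2 scale. The test was run at the 95% level, which chance passes in about 1 of 20 groups. *Ddit4* was at 49.9 CPM in NT 6 and at 6.62 to 13.6 CPM in the others. *Acot1* was at 3.35 CPM in NT 6 and at 0.221 to 0.814 CPM in the others. *Adam8* was at 1.03 CPM in NT 6 and at 0.342 to 0.545 CPM in the others. NT 6 is the NT mouse whose table name has the form of those of the treated mice, and in these 3 genes it lay on the side of the treated mice.

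*Ms4a7* was at 1.00 CPM in NT 5 against 0.291 to 0.470 CPM, and *Ttyh2* at 12.0 CPM in NT 5 against 24.9 to 31.5 CPM, also on the side of the treated mice. *Xirp1* was at 743 CPM in NT 1 against 233 to 334 CPM, again on that side. *Igtp* was at 17.9 CPM in NT 4 against 8.42 to 10.5 CPM, and *Lrp4* at 27.9 CPM in NT 2 against 15.6 to 19.0 CPM, both away from the treated mice. What set these mice apart was not tested.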

How the results depend on the processing

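Against NT, the counts of higher and lower genes were 494 and 250 with only these groups in the model, 81 and 29 with the table naming as a covariate and 64 and 11 in female mice. The lower genes numbered 76 with sex as a covariate and 261 by DESeq2. Leaving out 1 treated mouse gave 74 to 306 higher and 16 to 99 lower genes, and leaving out 1 NT mouse 228 to 272 and 71 to 123 (71 without NT 2, 73 without NT 1). Against the other injected groups the counts were 194 and 61 with only these groups in the model, 240 and 91 with the table naming and 289 and 96 in female mice. The lower genes there numbered 404 by DESeq2 and 477 without the free L9 group. Leaving out 1 treated mouse gave 107 to 423 higher and 31 to 143 lower genes, and leaving out 1 control mouse 414 to 2025 and 162 to 627. The female and free L9 alternatives were chosen after seeing the data. The causes were not tested, and fewer samples enter the fits that leave mice out.

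Of 1561 comparisons of the 79 called named genes with an alternative, 0 reversed and 324 lost the call, 54 of them with the table naming, 54 in female mice and 51 without animal B. Only genes without a call reversed. With the table naming these were *Acta1* (0.0029), *Col1a2* (0.13), *Hspa1a* (-0.30), *Hspa1b* (-0.55), *Lamp1* (-0.0084), *Map1lc3a* (-0.015) and *Scn4a* (0.11). With all 30 libraries they were *Acta1* (0.099), *C2* (-0.17) and *Hspa1a* (-0.12). In female mice they were *C2* (-0.040), *Cdh5* (0.36), *Map1lc3a* (-0.016) and *Myf5* (0.012), and with sex as a covariate *Cdh5* (0.25), *Col1a2* (0.12) and *Myf5* (0.15). Leaving out 1 treated mouse gave -0.17 to 0.054 for *Cdh5* (above 0 without B), -0.74 to 0.032 for *Ifit1* (without B), -0.28 to 0.025 for *Myf5* (without B) and -0.095 to 0.041 for *Acta1* (without C). Without NT 3 and NT 5 *Acta1* was at 0.0079 and 0.0015, and without NT 1 and NT 2 *Cdh5* at 0.010 and 0.096. No paired analysis was possible because the treated mice carry letters and the NT mice numbers.

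The design held 3 treated mice, all female, and 6 NT mice of both sexes. Of 20 genes of T, B and NK cells 3 passed the filter on low counts and were tested.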
